A study of Mus musculus with 8 samples.

Results

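The interferon regulatory factors, encoded by the *Irf* genes, were followed through the open chromatin of mouse bone marrow stromal cells. The 8 genes taken were *Irf1*, *Irf2*, *Irf3*, *Irf4*, *Irf5*, *Irf7*, *Irf8* and *Irf9*, chosen by name among the 22367 protein-coding genes of the GENCODE vM1 annotation of the mm9 build. They were split by where the factors are known to act: *Irf1*, *Irf2*, *Irf3*, *Irf7* and *Irf9* as the 5 widely used members, and *Irf4*, *Irf5* and *Irf8* as the 3 lymphoid and myeloid members. Accessibility was read by ATAC-seq, an assay that uses a transposase to tag DNA not covered by nucleosomes. There were 7 libraries, titled ATAC1 to ATAC7, all from wild type C57BL/6J mice aged 6 weeks per the labels (C57BL/6JJcl in the study's methods), and an Input library against which peaks were called. The study sorted 7 populations of mesenchymal stem and progenitor cells, but the labels do not link a title to a population, so libraries are named by title. The labels' extraction text describes RNA preparation, while the molecule is given as genomic DNA. Each title had 1 library, so no value below has a replicate, no test between libraries was possible, and all intervals cover counting error only.

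Interferon regulatory factors are transcription factors that share an N-terminal DNA-binding domain and recognise GAAA-containing elements in interferon genes and interferon-stimulated genes. *Irf3* and *Irf7* induce type I interferon after nucleic acid sensing, *Irf9* is part of the complex that answers type I interferon, *Irf1* is itself an interferon-induced activator, and *Irf2* competes with it for sites. *Irf4* and *Irf8* act in lymphocytes, dendritic cells and macrophages, often with the ETS factor PU.1, and *Irf5* drives inflammatory cytokine genes in myeloid cells.

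The genes lie on 6 chromosomes of mm9. *Irf1* (ENSMUSG00000018899.9) spans chr11:53583516-53591876, *Irf2* (ENSMUSG00000031627.7) chr8:47825099-47932812, *Irf3* (ENSMUSG00000003184.8) chr7:52253018-52258218, and *Irf9* (ENSMUSG00000002325.8) chr14:56222408-56228867, all on the forward strand. *Irf7* (ENSMUSG00000025498.7) spans chr7:148448605-148452380 on the reverse strand. *Irf4* (ENSMUSG00000021356.3) spans chr13:30841095-30858796, *Irf5* (ENSMUSG00000029771.5) chr6:29476625-29491869 and *Irf8* (ENSMUSG00000041515.3) chr8:123260258-123280594, all forward. A start-site peak was defined as a called peak whose centre lay within 1000 bases of any annotated transcript start of the gene.

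The 250 bases before the gene start are shown for the 3 members in which a searched motif was found there, *Irf1*, *Irf2* and *Irf8*, and for *Irf7*, which had the lowest CpG content of the family. The windows are chr11:53583266-53583515 (forward strand), chr8:47824849-47825098 (forward), chr8:123260008-123260257 (forward) and chr7:148452381-148452630 (reverse, printed along the gene), all read 5′ to 3′ from the mm9 sequence. Capitals mark motif matches.
Irf1: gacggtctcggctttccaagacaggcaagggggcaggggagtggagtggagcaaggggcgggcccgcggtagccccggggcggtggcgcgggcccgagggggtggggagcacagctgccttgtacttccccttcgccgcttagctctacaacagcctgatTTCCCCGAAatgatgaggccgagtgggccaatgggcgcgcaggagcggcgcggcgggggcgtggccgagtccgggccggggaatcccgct
Irf2: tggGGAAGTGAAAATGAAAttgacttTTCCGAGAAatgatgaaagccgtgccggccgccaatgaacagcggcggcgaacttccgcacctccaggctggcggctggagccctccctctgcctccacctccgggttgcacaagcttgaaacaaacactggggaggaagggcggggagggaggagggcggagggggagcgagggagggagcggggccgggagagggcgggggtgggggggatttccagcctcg
Irf8: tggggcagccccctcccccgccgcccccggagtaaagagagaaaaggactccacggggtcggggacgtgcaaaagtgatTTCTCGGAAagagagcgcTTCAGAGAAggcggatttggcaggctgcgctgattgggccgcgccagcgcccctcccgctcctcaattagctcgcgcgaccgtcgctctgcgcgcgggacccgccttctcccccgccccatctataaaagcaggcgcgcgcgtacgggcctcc
Irf7: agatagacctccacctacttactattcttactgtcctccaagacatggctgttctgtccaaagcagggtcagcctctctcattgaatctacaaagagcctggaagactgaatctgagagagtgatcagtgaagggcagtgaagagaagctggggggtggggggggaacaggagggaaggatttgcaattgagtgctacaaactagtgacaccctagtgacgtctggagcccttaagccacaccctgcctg

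3 motifs were searched on both strands. They were the interferon-stimulated response element (ISRE, GAAANNGAAA), the gamma-activated site of interferon-gamma response genes (GAS, TTCNNNGAA, which is its own reverse complement and is counted once) and the composite element for an ETS factor with an interferon regulatory factor (GGAANNGAAA). In the window from 250 bases before to 50 bases after the gene start, the ISRE was present in 3.78% of 22362 protein-coding genes, the GAS in 7.94% and the composite in 2.88%. In the family, *Irf2* held all 3 motifs, and *Irf1* and *Irf8* held the GAS. The *Irf1* match TTCCCCGAA lay at positions -90 to -82 from the gene start. In *Irf2* the composite GGAAGTGAAA at -247 to -238 overlapped the ISRE GAAAATGAAA at -241 to -232, and the GAS TTCCGAGAA followed at -224 to -216. *Irf8* had a pair of GAS matches, TTCTCGGAA at -171 to -163 and TTCAGAGAA at -153 to -145. No match was found in the windows of *Irf3*, *Irf4*, *Irf5*, *Irf7* and *Irf9*, which says only that these letters are not in these windows.

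These matches lay in open chromatin to different extents. The *Irf1* GAS was inside the start-site peak of the 6 libraries that had such a peak. The *Irf2* ISRE was inside a peak in ATAC1, ATAC3, ATAC4 and ATAC7, and inside the wider region from which the peak was cut in all 7 libraries. The *Irf8* pair was inside a peak only in ATAC1 and ATAC5, and inside the wider region in the 5 libraries with a peak. Base composition differed widely among the members. GC content ran from 51.7% in *Irf9* to 74.7% in *Irf5*, against a median of 55% and quartiles of 47% and 63.3% over all windows. The observed-to-expected CpG ratio was 0.142 in *Irf7*, 0.300 in *Irf9* and 0.401 in *Irf4*, all below the median gene at 0.534, and 0.673 to 1.03 in the other 5.

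The lists held 15188 (ATAC7) to 32280 (ATAC2) peaks, with medians of 111 to 169 library reads and 21 to 34 Input reads in the outer region of a peak. The lowest folds over Input in the lists lay just above 2, and a gene without a peak is one for which none passed the authors' threshold, not one shown to be closed. Over all protein-coding genes, a start-site peak was called for 49.0%, 50.2%, 43.5%, 43.7%, 52.7%, 51.5% and 42.0% from ATAC1 to ATAC7 in turn. It was called in all 7 libraries for 36.8% of genes and in none for 43.3%.

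Start-site peaks were called for most of the family in each library. Of the 8 genes, 8 had such a peak in ATAC1, ATAC3 and ATAC6, 7 in ATAC2 and ATAC5, 6 in ATAC7 and 5 in ATAC4. *Irf2*, *Irf3*, *Irf7* and *Irf9* had it in all 7 libraries, *Irf1* in 6, and *Irf4*, *Irf5* and *Irf8* in 5 each. No member was without a peak everywhere. Counted as gene and library pairs, the widely used members had 34 of 35 (97.1%) and the lymphoid and myeloid members 15 of 21 (71.4%). All 3 lymphoid and myeloid members lacked a peak in ATAC4, *Irf4* and *Irf5* also lacked it in ATAC7, and *Irf8* also lacked it in ATAC2.

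**Figure D1:**
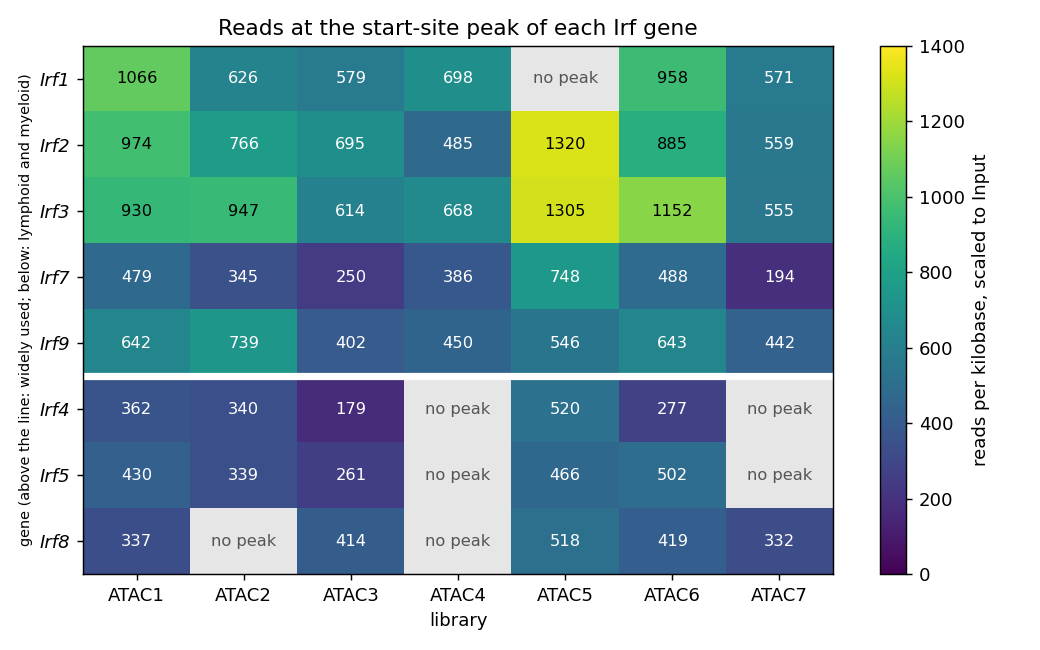
Library reads per kilobase in the outer region of the best-ranked start-site peak, multiplied by the library's scale factor to Input, for the 8 *Irf* genes (rows) in the 7 libraries (columns); grey cells had no called peak. The values run from 179 (*Irf4*, ATAC3) to 1320 (*Irf2*, ATAC5), and 6 of the 7 grey cells lie in the lymphoid and myeloid rows.

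Levels are given below as library reads per kilobase of the outer region of the best-ranked start-site peak, multiplied by the scale factor that the authors' fold over Input implies for that library. The factors ran from 1.01 (ATAC3) to 1.71 (ATAC5). Levels of all genes with a peak also differed by library, with medians from 496 in ATAC3 to 881 in ATAC5, so each gene's percentile among the genes with a start-site peak in the same library is given beside its level.

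Among the factors that induce interferon, *Irf3* had a higher level than *Irf7* in every library. The fold over Input of *Irf3* was also the higher in each, but close to that of *Irf7* in ATAC4 (8.32 against 8.21) and ATAC5 (15.0 against 14.5). The level of *Irf3* was 930, 947, 614, 668, 1305, 1152 and 555 from ATAC1 to ATAC7 in turn, on 108 to 579 reads. ATAC5 and ATAC6 stood highest, with the interval of ATAC6 (1058 to 1252) just above that of ATAC2 (846 to 1057), and ATAC4, ATAC3 and ATAC7 formed a lower set whose neighbouring intervals overlapped. Its percentiles were 75.7, 78.3, 70.7, 71.0, 77.7, 69.5 and 57.9 from ATAC1 to ATAC7 in turn. *Irf3* was thus above the median gene in all 7, and relative to other genes ATAC6 stood below ATAC3 and ATAC4, the reverse of the order by level. Its peaks also lay within 1000 bases of a start of *Bcl2l12*, which is transcribed in the opposite direction, so the reads cannot be assigned to either gene.

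*Irf7*, the interferon-induced amplifier of the type I response, had a peak in every library but at low levels. It stood at 479, 345, 250, 386, 748, 488 and 194 from ATAC1 to ATAC7 in turn. ATAC5 (614 to 901) lay apart from ATAC6 (425 to 558), and all later neighbours in the order overlapped down to ATAC7 (158 to 236), 3.85 times below ATAC5. The ATAC5 value came from a narrow outer region with 110 reads. *Irf7* was below the median gene in all 7 libraries, at percentiles of 26.7, 6.39, 4.31, 20.5, 38.4, 16.7 and 0.510 from ATAC1 to ATAC7 in turn. Its fold over Input ran from 4.41 to 14.5, with 13 to 33 Input reads.

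*Irf1*, the interferon-induced activator, was the only widely used member with a missing peak. Its level was 1066, 626, 579 and 698 from ATAC1 to ATAC4 in turn, 958 in ATAC6 and 571 in ATAC7, and no start-site peak was called in ATAC5. ATAC1 (956 to 1186) and ATAC6 (873 to 1049) overlapped and lay above the 4 other libraries with a peak, whose neighbours overlapped one another. By percentile the order was different, with 83.9 in ATAC1, 74.7 in ATAC4, 65.4 in ATAC3, 60.8 in ATAC7, 57.3 in ATAC6 and 43.9 in ATAC2. ATAC1 was first on both scales, and ATAC6 was next by level but below ATAC4, ATAC3 and ATAC7 by percentile. ATAC5 itself had 31479 peaks and the highest median level over genes. In all, 114 genes (0.510%) had a start-site peak in every library but ATAC5, against 45 for ATAC1, 97 for ATAC2, 56 for ATAC6 and 190 to 401 for the libraries with shorter lists. Fold over Input was moderate, from 4.54 (3.59 to 5.79) in ATAC7 to 8.57 (6.34 to 11.8) in ATAC1, on Input reads of 41 to 97.

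*Irf2*, which competes with *Irf1*, reached the highest level and the highest fold of the family. It stood at 974, 766, 695, 485, 1320, 885 and 559 from ATAC1 to ATAC7 in turn. ATAC5 (1215 to 1432) was separate from ATAC1 (896 to 1056), and ATAC4 (433 to 543) was 2.72 times lower than ATAC5. Its fold over Input was 22.3 (16.4 to 30.9) in ATAC5 and 7.95 (5.79 to 11.2) in ATAC4. Its percentiles were 78.8, 61.3, 80.8, 39.8, 78.4, 52.1 and 58.7 from ATAC1 to ATAC7 in turn, so ATAC4 was lowest on both scales while ATAC3 was highest by percentile and ATAC5 by level. The ATAC3 outer region was 463 bases wide, against 759 in ATAC5, and by fold over Input ATAC3 (8.25) stood above ATAC4 only. The start region is also within 1000 bases of a start of the annotated gene *Gm16675*.

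*Irf9*, the DNA-binding part of the type I interferon complex, had no clear break between libraries. Its level was 642, 739, 402, 450, 546, 643 and 442 from ATAC1 to ATAC7 in turn. Each of the 6 steps between neighbouring libraries had overlapping intervals, and the ends, ATAC2 (611 to 886) and ATAC3 (334 to 480), differed by 1.84 times without overlap. The peaks were centred 435.5 to 560 bases inside the gene, over its untranslated exon sequence and alternative starts. Its percentiles were 47.1, 58.1, 29.4, 33.1, 19.2, 31.9 and 35.1 from ATAC1 to ATAC7 in turn, with ATAC2 highest on both scales and ATAC5 lowest by percentile. The ATAC2 level came from a narrow outer region with 116 reads, and by fold over Input ATAC1 (13.99, 10.04 to 20.05) stood above ATAC2 (11.4, 6.76 to 20.7) with overlapping intervals.

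Of the lymphoid and myeloid members, *Irf4*, a factor of activated B cells and plasma cells, had the lowest level measured. It stood at 362 in ATAC1, 340 in ATAC2, 179 in ATAC3, 520 in ATAC5 and 277 in ATAC6, on 86 to 165 reads, with no peak in ATAC4 and ATAC7. ATAC5 (444 to 606) lay above ATAC1 (297 to 437), and ATAC3 (143 to 220) below ATAC6 (223 to 339). Its fold was 3.77 (2.36 to 6.26) in ATAC3 and 10.9 (7.16 to 17.1) in ATAC5. *Irf4* was below the median gene throughout, at percentile 11.5 in ATAC1, 6.00 in ATAC2, 0.483 in ATAC3, 16.98 in ATAC5 and 1.26 in ATAC6, and in ATAC3 its peak had rank 15466 of 16027.

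*Irf5*, the inflammatory regulator, had peaks in the same 5 libraries as *Irf4*. Its level was 430 in ATAC1, 339 in ATAC2, 261 in ATAC3, 466 in ATAC5 and 502 in ATAC6, on 72 to 151 reads, and all 4 neighbouring steps overlapped. The ATAC1 value came from a peak at an alternative start, 2579 bases inside the gene, and the others from peaks 24.5 to 244.5 bases inside it. The ATAC6 level rested on 72 reads in an outer region of 226 bases. Its fold over Input (3.78) was below those of ATAC5 (4.88) and ATAC1 (4.73), with overlapping intervals. In ATAC3 the fold was 2.22 (1.62 to 3.06), close to the lowest in that list. Input reads per kilobase were 90.9 to 133, and percentiles were 20.2 in ATAC1, 5.94 in ATAC2, 5.29 in ATAC3, 11.8 in ATAC5 and 17.9 in ATAC6.

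*Irf8*, which directs monocyte and dendritic cell development, had a peak in 5 libraries. Its level was 337 in ATAC1, 414 in ATAC3, 518 in ATAC5, 419 in ATAC6 and 332 in ATAC7, on 68 to 159 reads, with no peak in ATAC2 and ATAC4. All 4 neighbouring steps overlapped, and ATAC5 exceeded ATAC7 by 1.56 times, with intervals of 440 to 605 and 258 to 421. Fold over Input was 2.89 (1.81 to 4.73) in ATAC7 and 4.95 (3.62 to 6.86) in ATAC5, with 101 to 115 Input reads per kilobase over the 5 libraries. Its percentiles were 8.65 in ATAC1, 32.0 in ATAC3, 16.8 in ATAC5, 10.2 in ATAC6 and 13.3 in ATAC7. ATAC3 was thus highest relative to other genes, and median levels over genes were 881 in ATAC5 and 511 in ATAC7. The ATAC3 outer region was 268 bases wide, against 526 in ATAC5. By fold over Input ATAC3 (3.96) stood below ATAC5 (4.95) and ATAC6 (4.16), with overlapping intervals.

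**Figure D2:**
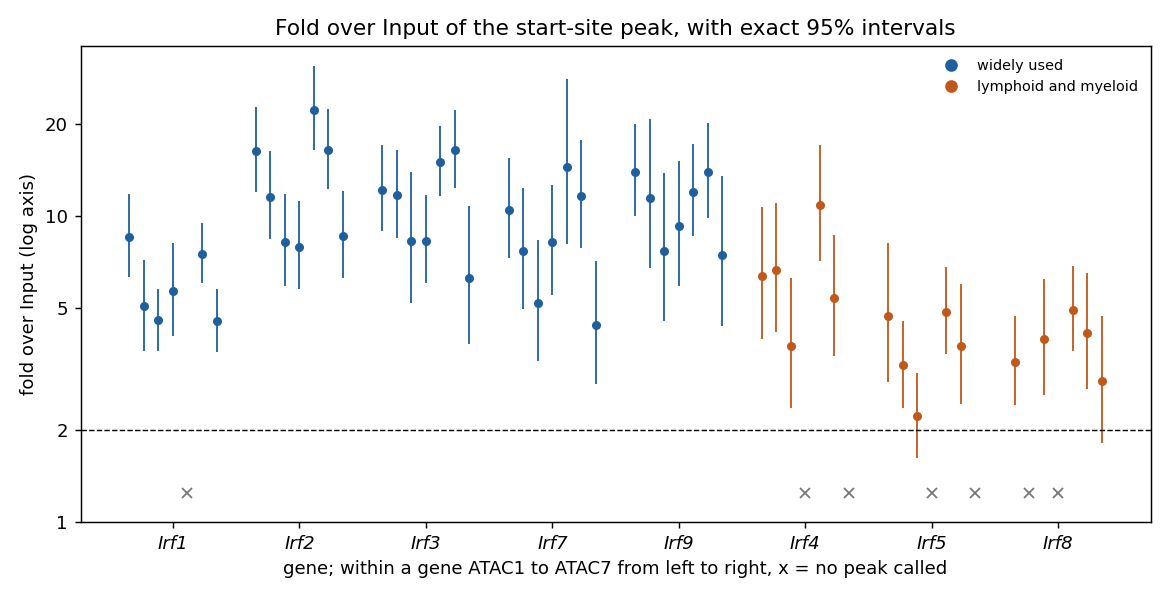
Fold over Input on a log axis for the start-site peak of each *Irf* gene, with libraries ATAC1 to ATAC7 from left to right within a gene; bars are exact 95% intervals for counting error, crosses mark libraries with no called peak and the dashed line is a fold of 2. *Irf5* and *Irf8* stayed under a fold of 5 in every library, while *Irf2*, *Irf3* and *Irf9* stayed above it. Input reads per kilobase were higher at *Irf5* and *Irf8* than at *Irf2*, *Irf3* and *Irf9*.

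Set side by side, the 34 peaks of the widely used members had a median fold of 8.59 (range 4.41 to 22.3), and the 15 of the lymphoid and myeloid members 4.16 (2.22 to 10.9). Median levels were 634 (194 to 1320) and 362 (179 to 520) scaled reads per kilobase. Relative to all genes with a start-site peak in the same library, the median percentile was 57.6 for the widely used and 11.5 for the lymphoid and myeloid members. Below the median gene were 15 of 34 and 15 of 15 peaks. These medians cover called peaks only, and peaks of 1 gene in 7 libraries share the gene's sequence and the same Input reads, so no test was made. Fold also depends on the Input reads at the gene. In ATAC5 *Irf4* and *Irf8* had levels of 520 and 518 but folds of 10.9 and 4.95, on 47.9 and 105 Input reads per kilobase. *Irf1*, a widely used member, had 123 to 127.

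The pattern of presence was shared with other genes. The 5 libraries of *Irf4* and *Irf5* were exactly those of 166 other genes each (0.742% of genes), and the 5 libraries of *Irf8* those of 15 others. By the distance in log2 level over the libraries with a peak, the nearest genes to *Irf4* were *Dlg4* (0.27), *Ephb2* (0.52) and *Lhx2* (0.52) over 5 libraries. For *Irf5* they were *Tchp* (0.25), *Tlr2* (0.28) and *Pdlim1* (0.32), with *Irf4* itself at 1.06. Nearest to *Irf8* were *Pik3c2b* (0.62), *Vat1* (0.79) and *Ntn1* (0.82). For *Irf1*, over 6 libraries, they were *Sfpq* (0.35) and the pair *Rbks* and *Bre* (0.49 each), which share a peak. These distances describe likeness in 5 or 6 libraries and nothing more.

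Around the genes, peaks were merged over libraries into 36 regions in or within 20 kb of a member. Of these, 13 lay at a start site of the member itself, 12 at the start site of another gene and 11 elsewhere. Regions called in all 7 libraries numbered 4, 3 and 1 in these classes. A peak beyond its own start sites was present for 6 of the 8 members in ATAC1 (49.7% of all genes), 4 in ATAC2 (54.9%), 4 in ATAC3 (38.8%), 3 in ATAC4 (39.0%), 6 in ATAC5 (56.0%), 5 in ATAC6 (54.6%) and 3 in ATAC7 (37.9%). The members' count was above the share of all genes in 4 libraries and below it in 3, and with 8 genes nothing is read from it.

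The region elsewhere that was called in all 7 libraries lay upstream of *Irf1*, at chr11:53577115-53577594 between genes, centred at -6161.5 bases from the gene start. It is shown because it was open in ATAC5, where the *Irf1* start site had no peak. The 300 bases on its centre (chr11:53577204-53577503, forward strand, mm9) held none of the 3 motifs, so no base is in capitals.
Irf1 upstream region: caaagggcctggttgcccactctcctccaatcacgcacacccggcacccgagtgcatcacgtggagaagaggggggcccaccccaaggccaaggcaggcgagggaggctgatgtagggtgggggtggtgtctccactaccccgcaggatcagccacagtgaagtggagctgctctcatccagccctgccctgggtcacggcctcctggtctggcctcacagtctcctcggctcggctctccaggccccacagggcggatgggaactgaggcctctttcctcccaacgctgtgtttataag

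Its level was 580, 559, 473, 396, 898, 473 and 618 from ATAC1 to ATAC7 in turn, on 167 to 649 library reads and 62 to 109 Input reads. ATAC5 (830 to 970) lay above all others, the next being ATAC7 (554 to 687). The fold over Input was 10.2 (8.31 to 12.6) in ATAC5 and 3.05 (2.27 to 4.15) in ATAC4. The ATAC5 level was close to the median of 881 over genes with a start-site peak in that library.

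*Irf2* had the most regions of its own, with 5 elsewhere, all in its introns. The one nearest its start site, chr8:47826293-47826617, centred 1356 bases inside the gene, was called in 6 libraries. Its level was 684 in ATAC1, 495 in ATAC3, 391 in ATAC4, 997 in ATAC5, 796 in ATAC6 and 410 in ATAC7, with none in ATAC2, and ATAC5 was highest and ATAC4 lowest, as at the start site. Further inside, a region at chr8:47930230-47930720, near the end of the gene, was called in ATAC1 (206) and ATAC5 (267).

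The lymphoid and myeloid members had 5 regions elsewhere, each in 1 or 2 libraries. Downstream of *Irf4*, chr13:30878160-30878282 was called in ATAC2 and ATAC5 on 64 and 67 reads, chr13:30874361-30874465 in ATAC5 on 48 reads and chr13:30878324-30878688 in ATAC6 on 91 reads. Upstream of *Irf8*, chr8:123249192-123249273, inside the overlapping annotated gene *Gm20388* and centred at -11025.5 bases, was called in ATAC1 and ATAC5 on 63 and 62 reads. Upstream of *Irf5*, chr6:29474354-29474480 was called in ATAC1 on 67 reads, and an alternative start at chr6:29478945-29479256 was open in ATAC1, ATAC3 and ATAC5. Leaving out that alternative start, none of the 5 regions elsewhere was called in ATAC3, ATAC4 or ATAC7, the 3 libraries with the shortest lists, at 16027, 15650 and 15188 peaks. At the start sites, ATAC3 had peaks for all 3 lymphoid and myeloid members, ATAC7 for 1 and ATAC4 for 0, while ATAC2, with the longest list, had none for *Irf8*. With the 15188 best-ranked peaks of each library, the start-site pairs numbered 9 in place of 15. The part of list length was not tested beyond that.

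**Figure D3:**
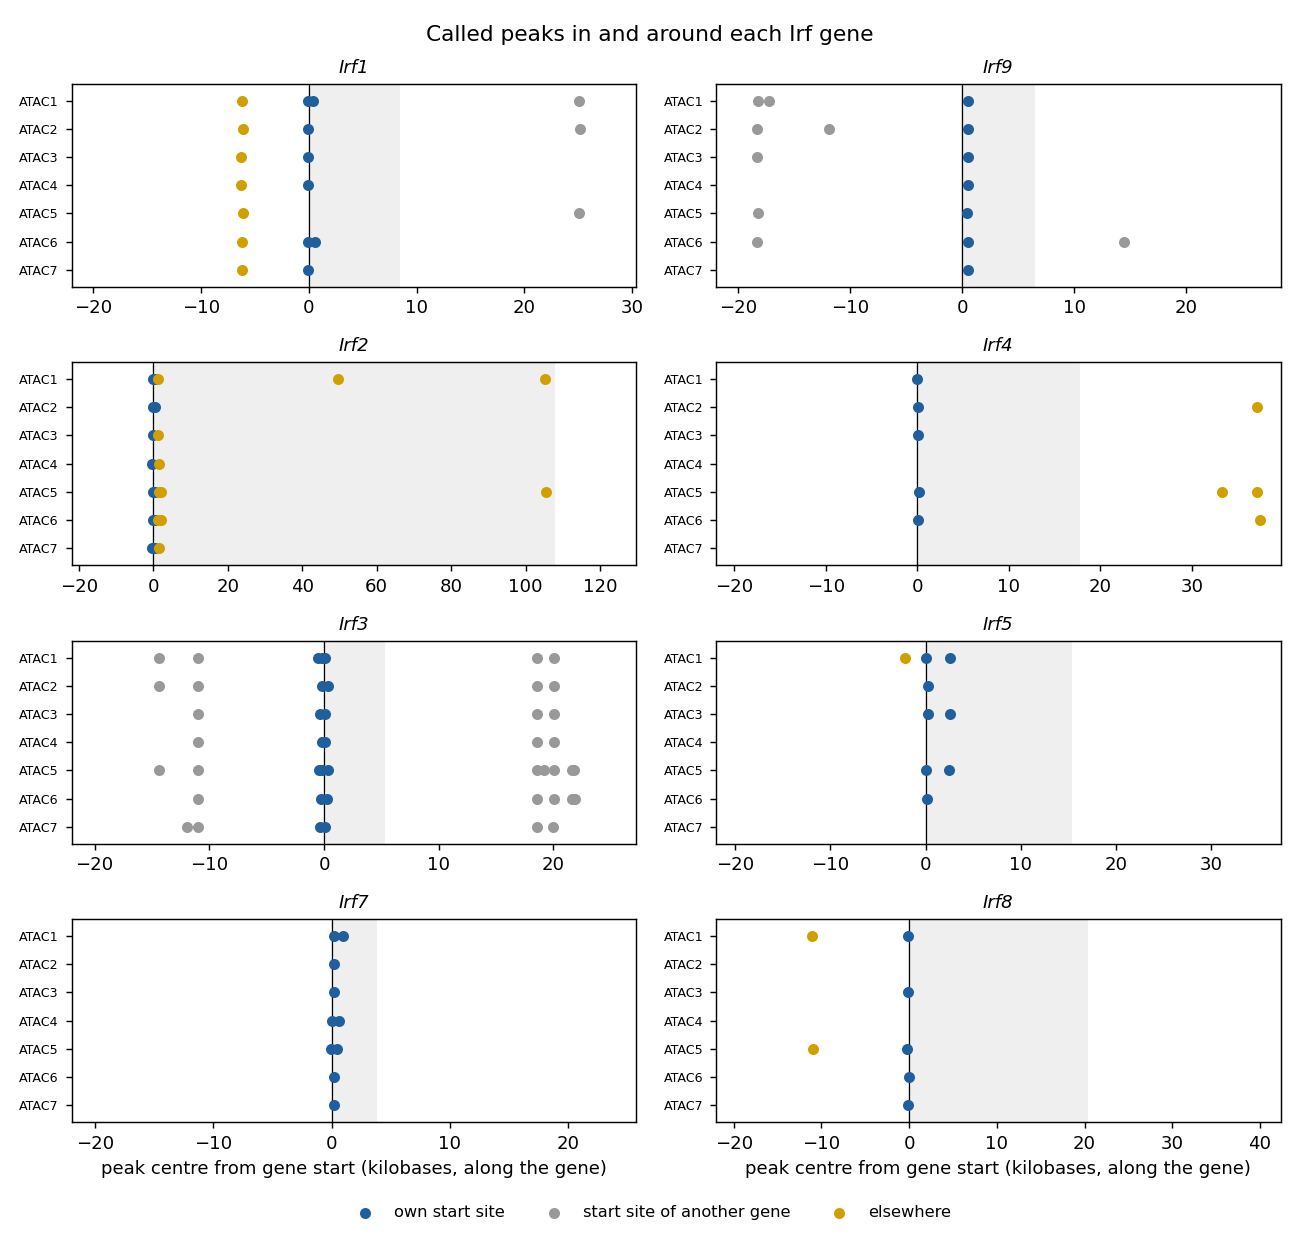
Position of each called peak (point) by its centre in kilobases from the gene start, along the direction of the gene, for the 8 *Irf* genes, with libraries in rows, the gene body shaded and colours for the kind of peak. The upstream *Irf1* peak is present in all 7 rows, and the 4 rows of *Irf4* and *Irf5* for ATAC4 and ATAC7 are empty.

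*Irf3* and *Irf9* sit in gene-dense stretches, and their other peaks were at neighbours' start sites. Near *Irf3* there were 7 such regions, of which 3 were called in all 7 libraries, 1 each at *Prmt1* with *Gm15545*, at *Scaf1* and at *Rras*, and the other 4, at *Prmt1*, *Scaf1* and *Rras*, in 1 to 3. Near *Irf9*, a region at *Fam158a* was called in 5 and another in ATAC1, that of *Psme2* with *Rnf31* in ATAC2 and that of *Rec8* in ATAC6. The region at *Irf1*'s downstream neighbour *Gm12216* was called in 3. In the 300 bases on the centres of the 36 regions, the ISRE was present in 2 (the start regions of *Irf2* and *Irf7*), the GAS in 6 and the composite in 3. Over the 50677 merged regions of the series these motifs were present in 3.44%, 8.18% and 3.25%.

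The 48 other genes of the interferon pathway were read by role. Start-site peaks in all 7 libraries were called for 21, in some for 19 and in none for 8, beside 36.8% of genes in all 7 and 43.3% in none. The ligand genes *Ifnb1* and *Ifng* had none. Of the 4 receptor genes, *Ifnar1*, *Ifngr1* and *Ifngr2* had a peak in all 7 and *Ifnar2* in all but ATAC7. Of the kinases and STATs, *Jak1*, *Jak2* and *Stat2* had a peak in all 7, and *Tyk2* in none. *Stat2* stood between 525 (ATAC3) and 1179 (ATAC5).

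Sensors and adaptors upstream of *Irf3* and *Irf7* were mixed. *Mavs*, *Ticam1*, *Myd88* and *Tbk1* were called in all 7 libraries, *Ifih1*, *Mb21d1* and *Traf6* in all but ATAC7, *Ddx58* in 4, *Ikbke* in 2 and *Tmem173* in 1. ATAC7 had 4 of these 10 genes, near its share of 42.0% over all genes, and the other libraries 7 to 9, beside shares of 43.5% to 52.7%. Among regulators, *Irf2bp1*, *Irf2bpl*, *Socs1* and *Socs3* were called in all 7, *Irf2bp2* in all but ATAC2 and *Usp18* in all but ATAC7.

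4 partners of *Irf4* and *Irf8* were listed. *Sfpi1*, which encodes PU.1, had a start-site peak in all 7 libraries at low levels, from 324 (ATAC7) to 544 (ATAC5). *Batf3* was called in ATAC2, ATAC5 and ATAC6, *Spib* in ATAC5 and *Batf* in none. In ATAC4, where the 3 lymphoid and myeloid members had no peak, *Sfpi1* stood at 372.

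Of 17 interferon target genes, *Ifit2*, *Bst2*, *Psmb9*, *Tap1* and *B2m* had a peak in all 7 libraries, *Psmb9* and *Tap1* through a shared one. *Mx2* was called in 5, *Gbp2* in 4, *Rsad2*, *Psmb8* and *Cxcl10* in 3 each, and *Isg15*, *Ifit1* and *Ciita* in 1. *Ifit3*, *Mx1*, *Oas1a* and *Oas2* had none. By library, 12 of the 17 were called in ATAC1 (49.0% of all genes), 10 in ATAC5 (52.7%), 9 in ATAC2 (50.2%), 7 in ATAC4 (43.7%) and 6 each in ATAC3 (43.5%), ATAC6 (51.5%) and ATAC7 (42.0%). The counts stood above the share of all genes in ATAC1, ATAC2 and ATAC5 and below it in ATAC3, ATAC4, ATAC6 and ATAC7. They were furthest above it in ATAC1 (70.6%) and furthest below it in ATAC6 (35.3%), and no test was made.

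The stated cell type and other cell types were checked by their markers. Of 20 stromal markers, *Nt5e*, *Fn1*, *Foxc1* and *Ebf3* had a start-site peak in all 7 libraries, 9 in some and 7 in none, *Ly6a*, *Prrx1* and *Lepr* among the last. By library, 6 (ATAC4) to 12 (ATAC2 and ATAC5) stromal markers were called, with summed levels from 2341 to 8637. As shares these were 45%, 60%, 35%, 30%, 60%, 55% and 50% from ATAC1 to ATAC7 in turn, below the share of all genes in ATAC1, ATAC3 and ATAC4. Of 20 haematopoietic markers, 8 were called in ATAC1 and ATAC5, 7 in ATAC3, 5 in ATAC4, 4 in ATAC6 and 2 in ATAC2 and ATAC7, *Sfpi1* being counted here too. Each of these counts was below the share of all genes in its library, the highest being 40% in ATAC1 and ATAC5. In ATAC3 the stromal and haematopoietic counts were equal, with a stromal sum of 2485. The summed haematopoietic level was 3510, 771, 2608, 1781, 4155, 1880 and 469 from ATAC1 to ATAC7 in turn. *Ptprc*, the pan-leukocyte CD45 gene, had a peak in ATAC1 (247), ATAC3 (179), ATAC5 (279) and ATAC7 (146). *Laptm5*, *Coro1a* and *Myb* were called in 5 libraries each and *Vav1* in 4. *Laptm5* stood at 736 in ATAC1 and 954 in ATAC5, above the medians over genes of 666 and 881. *Lyz2*, *Mpo*, *Csf1r* and *Cd3e* were among the 10 haematopoietic markers with no peak in any library. Of 12 endothelial markers, 0 (ATAC3 and ATAC7) to 5 (ATAC5) were called, below the share of all genes in every library.

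The 3 libraries with all 3 lymphoid and myeloid *Irf* genes and 7 or 8 haematopoietic markers were ATAC1, ATAC3 and ATAC5, while ATAC6 had all 3 *Irf* genes with 4 markers. ATAC2 and ATAC7, with 2 markers each, had 2 and 1 of the 3 genes, and ATAC4, with 5 markers, had 0. The study's sort took cells negative for CD45, TER119 and CD31, a gate meant to remove blood and endothelial cells. Within that gate, cells were enriched with antibodies to Sca-1 and PDGFR-α. The PDGFR-α gene *Pdgfra* was called in ATAC2, ATAC4, ATAC5, ATAC6 and ATAC7, but not in ATAC1 or ATAC3. *Ly6a*, which encodes Sca-1, was called in none. A missing peak does not show that either gene was closed. The part of other cells in the *Irf4*, *Irf5* and *Irf8* peaks was not tested. In such bulk libraries, a site open in few cells and a site weakly open in all cannot be told apart.

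**Figure D4:**
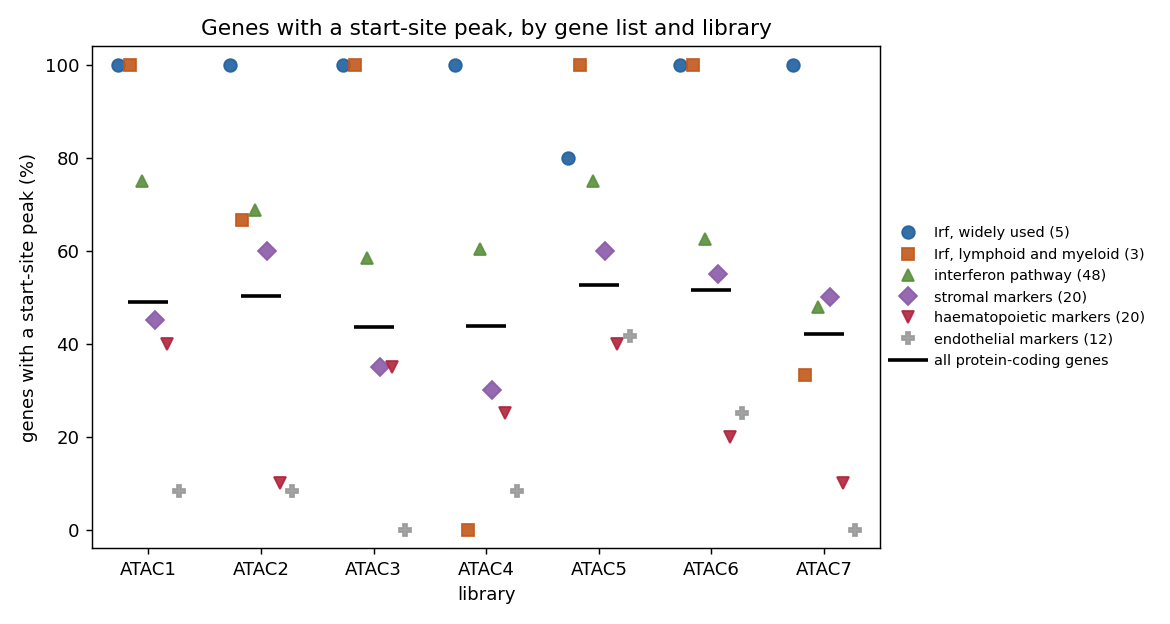
Percent of genes with a start-site peak in each library for the *Irf* classes, the interferon pathway list and 3 marker lists, with black bars for all protein-coding genes; numbers in the legend are genes per list. The widely used *Irf* genes stood at 80% in ATAC5 and 100% elsewhere, and the lymphoid and myeloid ones ran from 0% in ATAC4 to 100% in ATAC1, ATAC3, ATAC5 and ATAC6.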

How the data were processed

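Peak tables of 7 ATAC-seq libraries of mouse bone marrow stromal cells were used. The authors used bowtie for alignment to mm9 and CisGenome for peaks, comparing each library on its own with Input at a P limit of 1e-05 and keeping an FDR under 0.01. The labels also name Bowtie, DiffBind and bedtools; the versions of bowtie and CisGenome, the transposase read shift and duplicate removal are not given in the sources used here. A missing shift would move peak edges slightly. The deposited tables have no header, and columns were identified from their values. They hold, for the outer region of each peak, counts of reads from the library and from Input, as deposited by the authors without normalization. Their fold is a ratio made by the authors, a scale factor times library reads divided by Input reads plus 0.01, and 1 factor per library fitted all peaks within 0.0398%. Further signal columns of the deposited tables, made by the authors' caller, were not used. Separate coordinate lists and read-level data of Input were not analysed here.

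The annotation was GENCODE vM1 on NCBIM37, the assembly behind mm9. A start-site peak had its centre within 1000 bases of a transcript start, and other peaks lay in or within 20 kb of the gene. The best-ranked start-site peak stood for a gene. Levels have exact Poisson and folds exact Clopper-Pearson 95% intervals. Peaks were merged over libraries when they overlapped. Total library depth is unknown, so the reads behind each peak are given. Peak assignment was checked on simulated peaks at genes with no other protein-coding gene start within 20 kb. Crowded loci such as that of *Irf3* were not covered by this check. Software was Python 3.11.15, pandas 2.3.3, numpy 2.4.6, pysam 0.24.0, scipy 1.17.1 and matplotlib 3.10.9.

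Named were the 8 members, genes whose start lies within 1000 bases of a member's peak, the 3 genes nearest in level among those with peaks in the same libraries, and the pathway and marker lists. All 48 pathway genes were found, *Mb21d1* and *Irf2bpl* under older names. Members and lists were chosen with earlier results of these data known. Alternatives were other windows, placements, thresholds, an equal peak number, coordinates counted from 0, other distances, another choice of peak and fold in place of level. Some genes of these lists are not reported here by name.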

Additional observations from a re-analysis of the deposited data

How the results depend on the processing

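With only peaks of at least 5-fold over Input, the lymphoid and myeloid members had 4 of 21 gene and library pairs in place of 15, all of *Irf4*, while *Irf5* and *Irf8* had 0 libraries each and the widely used members 31 of 35. ATAC3 then had 4 members and ATAC7 had 3. Whether a peak passes this limit also depends on Input reads, which per kilobase were higher at *Irf5* and *Irf8* than at *Irf4*. With the 15188 best-ranked peaks of each library, the lymphoid and myeloid members had 9 pairs, 3 libraries for each of *Irf4*, *Irf5* and *Irf8*, the widely used members had 34, and ATAC6 had 5 members. The share of all protein-coding genes is not given for either setting, so these changes cannot be set beside those of other genes. Regions beyond the start sites, 23 in all, numbered 9 with equal peak numbers, 8 within 10 kb and 49 within 50 kb. The cause was not tested, apart from fewer peaks or a smaller or wider window by construction. The other 131 values, under start-site windows of 500 or 2000 bases, other placements, fold in place of level and the remaining settings, moved by at most 1.5 times or, for the ratio of a member's highest to lowest level, stayed within its counting interval. No paired analysis was possible because there is a single library under every title. No replicate could be left out for the same reason, and counts of 68 to 165 behind the lymphoid and myeloid peaks limit their precision.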
